A study of Bos taurus with 24 samples.

Results

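The genes described here encode the microtubule machinery of the bovine oocyte: tubulins, the kinesin and dynein motors that travel on microtubules, the proteins that nucleate, bundle or sever them, and the kinetochore and centromere proteins that attach chromosomes to them. They were chosen by gene symbol, with a rule set when earlier results of these data were known. The rule takes every entry starting with KIF and a digit or C, TUBA, TUBB, TUBG, TUBD, TUBE, DYNC, DYNL, DCTN, MAPRE, KATN, CEP and a digit, STMN, TACC, SPC2 or CENP, together with TPX2, NDC80 and NUF2. This gave 113 entries of 112 symbols among the 11306 entries of the table, because MAPRE2 is listed at 2 loci, which were kept apart. There were 27 entries with a kinesin symbol, of which KIF1BP is a kinesin-binding protein and no motor, 6 alpha tubulins, 6 beta tubulins, 6 gamma tubulins and gamma-tubulin complex proteins, 2 delta and epsilon tubulins, 12 cytoplasmic dynein subunits, 6 dynactin subunits, 4 end-binding protein entries, 5 katanins, 16 CEP proteins, 3 stathmins, TACC3 with TPX2, 4 subunits of the NDC80 complex and 14 CENP proteins.

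A fully grown oocyte rests at the germinal vesicle (GV) stage, in prophase of meiosis, and makes little new RNA. During maturation the nuclear envelope breaks down, a spindle forms without centrioles, homologous chromosomes separate, and the oocyte stops again at metaphase II (MII) with its chromosomes held on a second spindle until fertilization. Alpha and beta tubulin form the subunits of microtubules, gamma tubulin starts new ones, kinesins and dynein move and focus them, and kinetochores, built on CENP proteins and coupled to microtubules by the NDC80 complex, hold the chromosomes to the spindle.

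RNA was sequenced from 24 libraries in 4 groups of 6: immature and matured oocytes, each from May, the spring samples, and from July, the summer samples, to compare the cool season with seasonal heat stress. The oocytes were aspirated by ovum pick-up from adult, non-lactating, non-pregnant Angus-based crossbred beef cows (Bos taurus) that carried no transgene, for which no drug is named beyond sedation and analgesia for the aspiration, and which were kept alike in both seasons. GV oocytes were taken immature, while MII oocytes had been matured in vitro with their cumulus cells, which were then stripped from both. The maturation medium held follicle-stimulating hormone, gentamicin and fetal bovine serum, so the stage and this culture cannot be told apart. Per the methods each library held a pool of 4 oocytes of 1 animal, whereas the labels speak of individual cells. The methods name fewer cows than there are libraries, so some libraries share an animal, and which ones do is not given in the sources used here. The p-values therefore measure the spread between these libraries.

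Values are FPKM, fragments corrected for exon length and sequencing depth, which the deposited table scales to the same total in every library, so each is a share of that total and not an amount per oocyte. Polyadenylated RNA was amplified, so between the stages a change in tail length and a change in RNA amount cannot be told apart. The test was limma, fitted on log2(FPKM + 1) to the 9526 entries above 0.1 FPKM in at least 1 library. Of the 113 entries 109 passed this filter, and KATNAL2, KIF21A, KIF27 and STMN2 were not tested. A call required both a fold change over 2 and a p under 0.05 before adjustment. Rose and fell are used below for entries that were called or had a Benjamini-Hochberg adjusted p under 0.05 over all genes tested. Fold changes on this scale understate the change of genes near or under 1 FPKM, as 57 of the 113 entries are on average. An exact permutation test over the 924 ways to divide 12 libraries, two-sided, is given for single genes, and the smallest p it can give is 0.00216.

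Some libraries stood apart. The depth of spring GV replicate 6, estimated from the steps between low values, was 0.0565 times that of spring GV replicate 1, that of spring MII replicate 6 was 0.149 times, and that of summer GV replicate 2 was 0.393 times, and these are also the 3 libraries with a low share of mapped reads. The other libraries had 0.542 to 6.51 times that depth. The 9 oocyte markers analysed summed to between 517.5 and 1895 FPKM in every library. The 17 cumulus and granulosa cell markers had group medians of 47.73 to 58.67 FPKM, but reached 588.1 in replicate 6 of spring GV, 162.1 in replicate 6 of spring MII and 124.1 in replicate 2 of summer GV. Of the 17, KRT8 and STAR exceeded 1 FPKM in all 24 libraries and made up most of the group medians, with medians of their own of 18.02 to 26.92 and 14.84 to 24.49 FPKM. PTGS2 exceeded 1 FPKM in 20 libraries, KRT18 in 13, and HAS2 and CYP11A1 in 12 each, while FSHR, a receptor that defines these cells, was at the lowest value of the table, 0.01, in 21 libraries, AMH in 15 and TNFAIP6 in 14. In pooled samples fewer cells of a type and less RNA per cell cannot be told apart. The 5 blood cell markers had medians of 50.05 and 43.77 FPKM in spring and summer GV oocytes and 12.73 and 14.05 in MII oocytes. CD52 had medians of 37.96 and 39.21 FPKM in spring and summer GV oocytes and of 8.79 and 9.25 in MII oocytes. HBA exceeded 1 FPKM in 23 libraries, with medians of 3.95 to 4.98 FPKM in the 4 groups, and HBB was at 0.01 in 23 libraries.

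Between GV and MII oocytes, the tubulin isotypes that made up most tubulin RNA at the GV stage fell, the spindle midzone motors KIF20A, KIF20B and KIF23 and the spindle assembly factor TPX2 rose, and the dynein light chains DYNLRB1 and DYNLL1 fell. In spring, 11 of the 109 entries tested were called higher in MII oocytes, against 3.57% of all genes tested, and 7 were called lower, against 8.25%. In summer 6 were called higher, against 2.2% of all genes, and 9 lower, against 9.26%. With the adjusted p alone, 28 rose and 9 fell in spring, where 9.45% and 14.7% of all genes did, and 27 rose and 17 fell in summer, where 7.67% and 23.1% did. The median log2 fold change of the 109 was 0.13 in spring and 0.07 in summer, beside -0.03 and -0.02 over all genes tested. Without a pseudocount, where low genes weigh more, 35 were called higher and 14 lower in spring, beside 14.4% and 22.7% of all genes, and 25 higher and 23 lower in summer, beside 8.71% and 29%. Under median-of-ratios scaling the calls were 7 higher and 9 lower in spring, beside 1.99% and 10.1% of all genes, and 8 higher and 9 lower in summer, beside 2.3% and 9.17%. Under quantile normalization they were 16 higher and 7 lower in spring, beside 5.85% and 6.8%, and 18 higher and 7 lower in summer, beside 5.19% and 7.06%.

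The 2 seasons share no libraries in this comparison, though libraries of the 2 seasons may share a cow. The 23 entries called in either season had the same direction in both. No share over all genes was computed for this, so the agreement is not set apart from that of other genes. Of these, 4 were called higher in both seasons (KIF20B, DYNC1I2, CEP44 and CENPL), 6 were called lower in both (TUBB4B, TUBA1B, TUBB6, DYNLL1, DYNLRB1 and CENPM), 8 were called in spring alone and 5 in summer alone. Of all genes tested 11.8% were called in spring and 11.5% in summer, with 1.42% called higher in both seasons and 7.3% lower in both. At an unadjusted p under 0.05, 41 entries were higher and 14 lower in spring, beside 38.8% of all genes in either direction, 36 were higher and 24 lower in summer, beside 42.1%, and 30 were higher and 11 lower in both, beside 9.09% and 20.4%. The 6 GV and 6 MII libraries did not overlap for 14 entries that were higher and 6 that were lower in spring, beside 4.65% and 8.98% of all genes, and for 11 higher and 12 lower in summer, beside 3.07% and 14.7%.

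**Figure D1:**
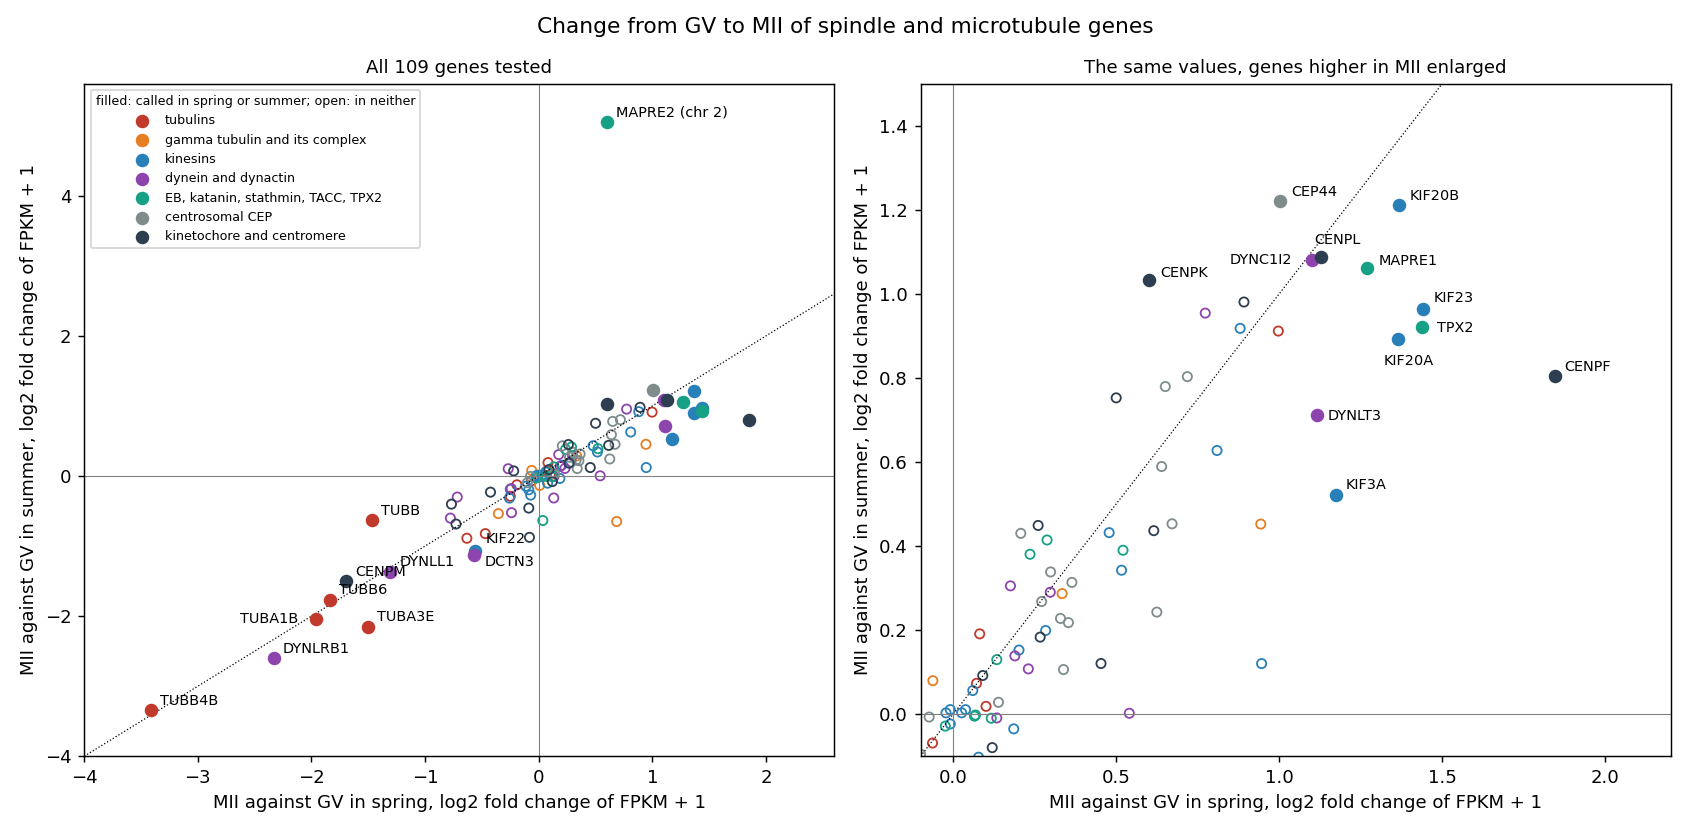
Change from GV to MII oocytes in spring (x axis) against summer (y axis), as log2 fold change of FPKM + 1, for the 109 entries tested. Each point is 1 entry, coloured by role and filled where it was called in either season, and the dotted line marks equal change. DYNLRB1 at -2.33 and -2.6 and TUBB4B at -3.42 and -3.34 lie far down on the line, and MAPRE2 on chromosome 2 lies off it, at 0.60 in spring and 5.05 in summer.

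The steepest fall between the stages among the 109 entries was that of a beta tubulin. TUBB4B (chromosome 11, 105860108 to 105862550 on UMD3.1.1) is a broadly expressed isotype that contributes to spindle and ciliary microtubules. Its spring values ran from 28.5 to 157 (median 104) FPKM in GV libraries and from 3.21 to 14.4 (median 6.7) in MII libraries. The summer GV libraries ran from 43.4 to 109 (median 58) and the summer MII libraries from 1.29 to 13.5 (median 6.59). Every GV library lay above every MII library of its season. The means fell from 94.2 ± 52.4 to 7.45 ± 4.4 FPKM in spring (SD, n = 6), a log2 fold change of -3.42 (SE 0.47, limma adjusted p = 0.000386, exact permutation p = 0.00216). In summer they fell from 69.6 ± 26.6 to 6.92 ± 4.7, a log2 fold change of -3.34 (SE 0.43, limma adjusted p = 0.000132, exact permutation p = 0.00216).

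Of the 6 beta tubulins, 3 were called lower in spring and 2 in summer, beside 8.25% and 9.26% of all genes. None was called higher, beside 3.57% and 2.2% of all genes. TUBB6 (chromosome 24, 43249500 to 43250811) fell from 8.21 ± 5.52 to 1.36 ± 1.16 FPKM in spring and from 6.93 ± 3.37 to 1.41 ± 1.21 in summer, log2 fold changes of -1.83 (SE 0.44) and -1.77 (SE 0.38), with limma adjusted p-values of 0.00951 and 0.00388. TUBB (chromosome 23, 28101729 to 28105321), the class I isotype of most dividing cells, fell in spring, with a log2 fold change of -1.47 (SE 0.49, limma adjusted p = 0.0454). Its spring GV mean of 6.51 ± 8.48 FPKM rests on replicate 6 at 23.3, beside a median of 2.76, and without the 3 libraries of low mapping rate its log2 fold change was -0.93 and TUBB was no longer called. In summer TUBB had a log2 fold change of -0.63 and was not called. TUBB3, best known from neurons, was at 7.69, 5.61, 6.63 and 5.89 FPKM in spring GV, summer GV, spring MII and summer MII oocytes, with log2 fold changes of 0.07 and 0.07 between the stages, neither of them called.

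The makeup of beta tubulin RNA, given as a description without a test, differed between the stages. TUBB4B held 78.3 ± 8.18% of the summed beta tubulin FPKM in spring GV libraries and 39 ± 8.31% in spring MII libraries (SD, n = 6), and 79.1 ± 3.21% and 37.4 ± 12.5% in summer. TUBB3 held 5.77 ± 1.6% and 38.5 ± 8.09% in spring, and 6.2 ± 1.11% and 38.2 ± 11.7% in summer. The summed beta tubulin level went from 120.2 ± 67.7 FPKM in spring GV to 18.3 ± 8.57 in spring MII oocytes, and from 88.4 ± 35.1 to 17.2 ± 9.06 in summer.

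Alpha tubulin changed in the same way, through a part of its isotypes. TUBA1B (chromosome 5, 30864529 to 30868129), a ubiquitous isotype, ranged from 89.5 to 315 (median 180.1) FPKM in spring GV and from 22.7 to 101 (median 43.7) in spring MII libraries. In summer it ranged from 133 to 266 (median 148) and from 21.9 to 56.9 (median 43.9). The stages overlapped in spring and did not overlap in summer. TUBA1B fell, with a log2 fold change of -1.96 in spring (SE 0.39, limma adjusted p = 0.00355, exact permutation p = 0.00433) and of -2.05 in summer (SE 0.27, limma adjusted p = 0.00016, exact permutation p = 0.00216). TUBA3E (chromosome 17, 74335927 to 74341650) averaged 39 ± 39.4 FPKM in spring GV, 34.4 ± 23.5 in summer GV, 8.76 ± 7.22 in spring MII and 7.87 ± 7.14 in summer MII. Its fall in summer was called, at -2.15 (SE 0.62, limma adjusted p = 0.0197), and its log2 fold change of -1.51 in spring was not (unadjusted limma p = 0.0586, exact permutation p = 0.0974). TUBA4A, at under 1 FPKM in every group mean, fell in both seasons, with log2 fold changes of -0.63 and -0.89 (limma adjusted p = 0.0127 and 0.00296), short of the fold threshold.

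TUBA1C, which lies on chromosome 5 with TUBA1A and TUBA1B, averaged 101 ± 29.6 FPKM in spring GV, 111 ± 64 in summer GV, 106 ± 24.1 in spring MII and 119 ± 90.5 in summer MII. Its log2 fold changes of 0.10 and 0.02 were not called. TUBA1C thus held 31.2 ± 5.47% of the summed alpha tubulin FPKM in spring GV and 62.9 ± 7.42% in spring MII libraries, and 33.2 ± 8.12% and 64.3 ± 13.5% in summer. TUBA1B held 56.3 ± 4.77% and 27.5 ± 6.28% in spring, and 54.1 ± 3.78% and 27 ± 11.1% in summer. Tubulin genes of one class are nearly identical in their coding sequence, and how reads that match several of them were counted is not given in the sources used here, so the split between isotypes is uncertain. The summed alpha tubulin level, which depends less on that split, went from 345 ± 152 to 172 ± 52 FPKM in spring and from 325 ± 120.2 to 175 ± 92.6 in summer.

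**Figure D2:**
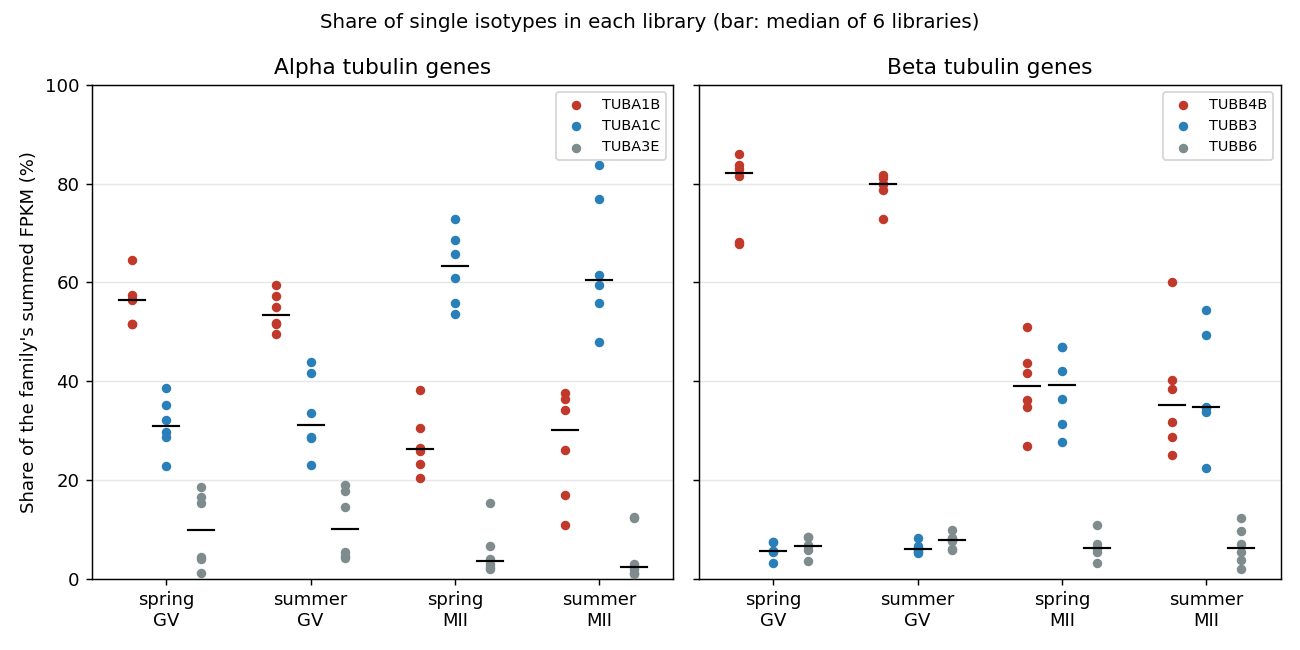
Share of the summed alpha tubulin FPKM held by TUBA1B, TUBA1C and TUBA3E, and of the summed beta tubulin FPKM held by TUBB4B, TUBB3 and TUBB6, in percent, for each library of the 4 groups. Dots are libraries and bars are group medians. TUBB4B lay between 67.73% and 85.96% in GV libraries and between 25.06% and 60.05% in MII libraries, so its shares at the 2 stages did not overlap.

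The gamma tubulins and the 4 gamma-tubulin complex proteins, which nucleate microtubules, had no call between the stages in either season. TUBG2, which lies 39.27 kb from TUBG1 on chromosome 19, was the more abundant of the pair, with 90.3 ± 4.51% of their sum in spring GV and 92.7 ± 5.32% in summer MII libraries. TUBG2 averaged 43.7 ± 21.6 FPKM in spring GV, 42.4 ± 21.7 in summer GV, 83 ± 41.4 in spring MII and 56.7 ± 19.9 in summer MII, and its spring log2 fold change of 0.94 had a limma adjusted p of 0.0858. TUBE1, epsilon tubulin, a centriole component, rose in both seasons. Its mean went from 1.4 ± 0.662 to 3.72 ± 0.84 FPKM in spring and from 1.53 ± 0.37 to 4.01 ± 2.08 in summer, with limma adjusted p-values of 0.00452 and 0.0101 and folds just short of the threshold on the log2(FPKM + 1) scale.

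TPX2 (chromosome 13, 61831821 to 61885790), which activates Aurora A and helps microtubules form around chromosomes, rose during maturation in both seasons. It ranged from 1.17 to 2.4 (median 1.41) FPKM in spring GV and from 3.56 to 7.47 (median 6.55) in spring MII libraries. In summer it ranged from 1.8 to 3.31 (median 2.51) and from 3.37 to 8.67 (median 6.28). The stages did not overlap in either season. The log2 fold change was 1.44 in spring (SE 0.20, limma adjusted p = 0.000474) and 0.92 in summer (SE 0.22, limma adjusted p = 0.00716), the latter short of a fold of 2 on the log2(FPKM + 1) scale, and both had an exact permutation p of 0.00216. TACC3, which works with clathrin and a microtubule polymerase to stabilize spindle fibres, was among the most abundant genes of the set and had no call between stages. TACC3 medians were 89.8, 97.1, 95.5 and 111 FPKM in spring GV, summer GV, spring MII and summer MII oocytes, with single libraries as high as 913 in spring GV replicate 6 and 608 in summer GV replicate 2.

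Among the proteins that track or destabilize microtubule ends, few were called. MAPRE1, the end-binding protein EB1 (chromosome 13, 62728053 to 62755965), ranged from 2.4 to 31.2 (median 3.92) FPKM in spring GV and from 6.68 to 47.5 (median 12.1) in spring MII libraries, which overlapped. Its log2 fold change of 1.27 in spring was called at an unadjusted p of 0.04 (SE 0.56, limma adjusted p = 0.111, exact permutation p = 0.0693). The call was lost without any one of spring GV replicates 1 to 5 or spring MII replicates 3, 5 and 6, with a log2 fold change of 0.93 without spring MII replicate 6. In summer MAPRE1 had a log2 fold change of 1.06 (unadjusted limma p = 0.0709, exact permutation p = 0.0952). The GV libraries with the highest TACC3, spring replicate 6 and summer replicate 2, were also those with the highest MAPRE1, at 31.2 and 29.8 FPKM, and are the 2 GV libraries with raised cumulus cell markers and low depth, whose part in these values was not tested.

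STMN1, stathmin, which binds tubulin dimers and destabilizes microtubules, averaged 20.3 ± 7.11 FPKM in spring GV, 20.4 ± 4.18 in summer GV, 28.7 ± 4.47 in spring MII and 27.2 ± 6.08 in summer MII and was not called. The katanins sever microtubules, and none of the 4 tested was called at either comparison of stages. KATNA1, the catalytic subunit, averaged 0.629, 0.588, 0.943 and 1.12 FPKM in spring GV, summer GV, spring MII and summer MII oocytes.

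MAPRE2, a further end-binding protein, is listed at 2 loci whose values did not move together. The entry on chromosome 2, from 21117911 to 21119284, spans 1.374 kb, and the entry on chromosome 24, from 22190114 to 22306885, spans 116.772 kb. On chromosome 2, spring GV libraries ran from 0.01 to 88.2 (median 32.7) FPKM and spring MII libraries from 0.01 to 141 (median 56.4). Summer GV libraries were at 0.01 in 5 of 6, with replicate 3 at 56.1, while summer MII libraries ran from 30.4 to 107 (median 68). The rise in summer had a log2 fold change of 5.05 (SE 0.90, limma adjusted p = 0.00125, exact permutation p = 0.00649), whose size depends on the pseudocount because one group is mostly at the lowest value, and the spring value of 0.60 was not called.

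The 7 libraries in which the chromosome 2 entry of MAPRE2 was at 0.01 were the 7 in which the chromosome 24 entry was above it. In the chromosome 24 entry these held 0.663 FPKM in replicate 4 of spring GV, 0.932 in replicate 3 of spring MII, and 0.481, 1.51, 0.601, 0.513 and 0.638 in summer GV replicates 1, 2, 4, 5 and 6. The other 17 libraries were at 0.01 there. The 2 entries of one symbol were never above 0.01 in the same library, so a low level of MAPRE2 and an assignment of its reads to the other entry cannot be told apart, and all MAPRE2 results are uncertain. Counts of entries here take both of them, though they are not separate results.

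**Figure D3:**
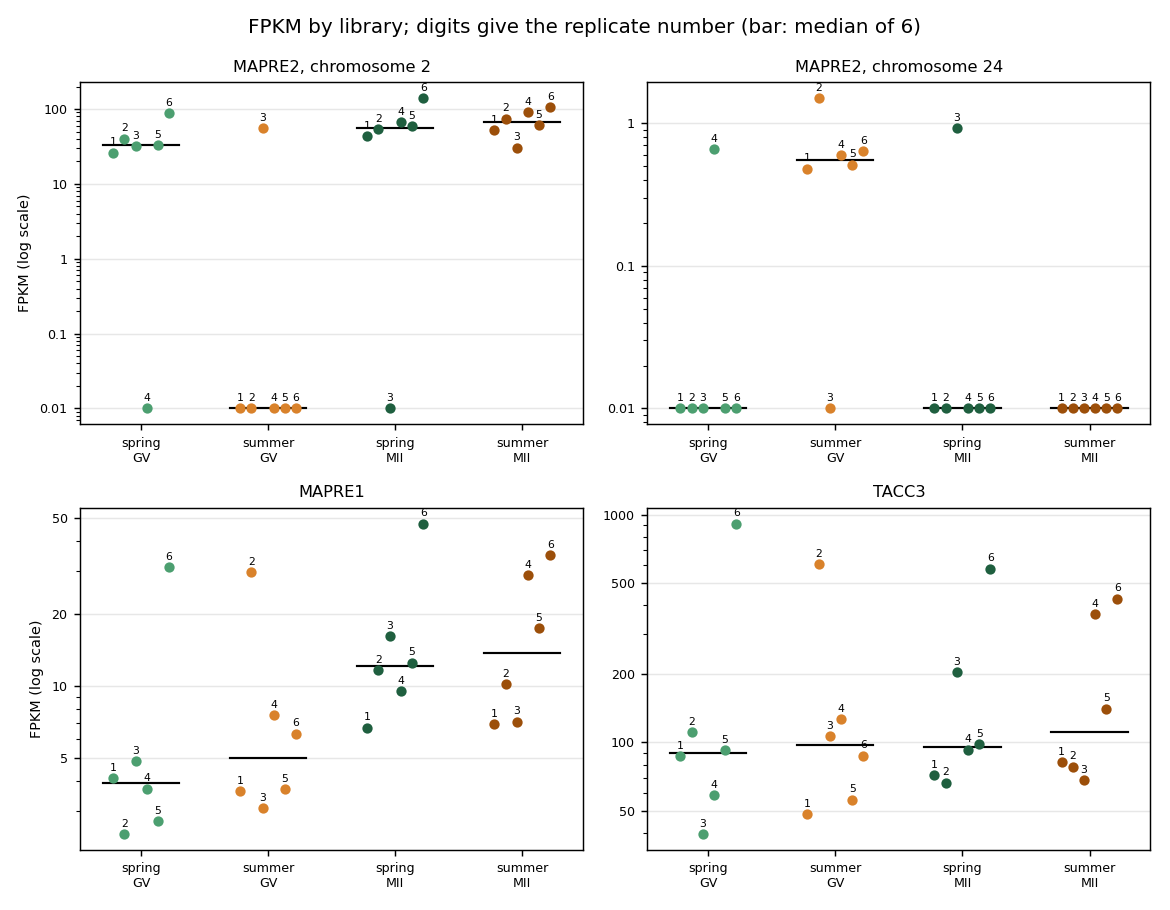
FPKM of MAPRE2 at its chromosome 2 and chromosome 24 entries, MAPRE1 and TACC3 in each library of the 4 groups, on a log axis, with digits as replicate numbers. MAPRE2 libraries at 0.01 on chromosome 2 are those above it on chromosome 24, and replicate 6 in spring GV and replicate 2 in summer GV are the highest of their groups for both MAPRE1 and TACC3.

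Of the 25 kinesin entries tested, 10 rose and 0 fell by limma adjusted p in spring, where 9.45% of all genes rose and 14.7% fell, and 8 rose and 3 fell in summer, where 7.67% rose and 23.1% fell. The median log2 fold change of the 25 was 0.08 in spring and 0.01 in summer, beside -0.03 and -0.02 over all genes. In spring 4 kinesin entries were called higher and 0 lower, beside 3.57% and 8.25% of all genes. In summer 1 was called higher and 1 lower, beside 2.2% and 9.26%. The summed level of the 27 kinesin entries went from 23.4 ± 9.0 to 48.9 ± 7.68 FPKM in spring (SD, n = 6) and from 30.9 ± 14.8 to 47 ± 14.1 in summer. The called members were chiefly kinesin-6 motors, which bundle microtubules of the spindle midzone and are needed to complete cell division. KIF23 (chromosome 10, 16268191 to 16308716) ranged from 1.14 to 2.97 (median 1.53) FPKM in spring GV and from 3.88 to 9.89 (median 6.3) in spring MII libraries. In summer it ranged from 2.16 to 3.13 (median 2.49) and from 3.77 to 14.6 (median 5.23), and the stages did not overlap in either season. Its log2 fold change was 1.44 in spring (SE 0.25, limma adjusted p = 0.00151) and 0.96 in summer (SE 0.26, limma adjusted p = 0.0151), with an exact permutation p of 0.00216 in both.

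KIF20A (chromosome 7, 51214237 to 51222640), which carries the chromosomal passenger complex to the midzone, ranged from 0.619 to 2.99 (median 2.15) FPKM in spring GV and from 3.17 to 9.39 (median 6.67) in spring MII libraries, with no overlap. It rose by 1.37 on the log2 scale in spring (SE 0.27, limma adjusted p = 0.00375) and by 0.89 in summer (SE 0.26, limma adjusted p = 0.0209). KIF20B (chromosome 26, 11389812 to 11467710), its close relative, went from 3.27 ± 2.33 to 9.02 ± 1.49 FPKM in spring and from 3.91 ± 1.77 to 10.2 ± 3.09 in summer. It had the highest mean of the kinesins and was called in both seasons, at 1.37 (SE 0.29, limma adjusted p = 0.00541) and 1.21 (SE 0.23, limma adjusted p = 0.00195).

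KIF11, the motor that pushes spindle poles apart, rose from 0.26 ± 0.126 to 0.802 ± 0.173 FPKM in spring and from 0.413 ± 0.149 to 0.797 ± 0.25 in summer, with limma adjusted p-values of 0.00633 and 0.0456 and folds under 2 on the log2(FPKM + 1) scale. KIF3A, a motor of intraflagellar transport, went from 1.03 ± 1.01 to 3.39 ± 1.21 FPKM in spring and was called at 1.17 (SE 0.28, limma adjusted p = 0.00901), while its summer value of 0.52 was not. KIF2C, which removes tubulin from microtubule ends at centromeres, rose in spring by 0.95 on the log2 scale (limma adjusted p = 0.0403), and its log2 fold change was 0.12 in summer. KIF22, a chromosome-binding motor, was the 1 kinesin called lower, in summer alone, at -1.07 (SE 0.37, limma adjusted p = 0.0437). That call rests on summer GV replicate 2 at 16.6 FPKM, beside a median of 4.04, since without this library the KIF22 value was -0.74, and it was also lost without summer MII replicate 5, at -0.96. KIFC1, a motor that focuses spindle poles in cells without centrosomes, averaged 0.604, 0.546, 0.601 and 0.311 FPKM in spring GV, summer GV, spring MII and summer MII oocytes and was not called.

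Dynein subunits moved in both directions. Dynein walks toward the minus ends of microtubules and gathers spindle poles. DYNLRB1, a roadblock light chain (chromosome 13, 64466198 to 64483931), ranged from 8.16 to 15.6 (median 9.72) FPKM in spring GV and from 0.593 to 2.72 (median 1.21) in spring MII libraries. In summer it ranged from 11.1 to 13.2 (median 11.6) and from 0.642 to 1.53 (median 1.12). Every GV library exceeded every MII library. The log2 fold change was -2.33 in spring (SE 0.23, limma adjusted p = 5.78e-05) and -2.6 in summer (SE 0.14, limma adjusted p = 7.38e-07), with an exact permutation p of 0.00216 in both. Its paralog DYNLRB2 took a larger part of their sum in MII oocytes, as DYNLRB1 held 97.2 ± 1.27% in spring GV and 70.5 ± 12.7% in spring MII libraries, and 97.2 ± 1.52% and 64.3 ± 15.9% in summer.

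DYNLL1 (chromosome 17, 65042596 to 65045027), a light chain that also binds many proteins outside dynein, was the most abundant gene of the set. It ranged from 645 to 1644 (median 1184) FPKM in spring GV and from 195 to 647 (median 495) in spring MII libraries. Summer GV libraries ranged from 673 to 1788 (median 1332) and summer MII libraries from 263 to 679 (median 524). The stages overlapped by 1 pair of libraries in each season, 645 FPKM in spring GV replicate 6 beside 647 in spring MII replicate 5 and, for summer, 673 in GV replicate 2 beside 679 in MII replicate 3. DYNLL1 fell, with a log2 fold change of -1.31 in spring (SE 0.30, limma adjusted p = 0.00799, exact permutation p = 0.00433) and of -1.37 in summer (SE 0.27, limma adjusted p = 0.00238, exact permutation p = 0.00433). Its share of the sum of DYNLL1 and DYNLL2 had medians of 98.4% in spring GV, 98.3% in summer GV, 96.9% in spring MII and 97.5% in summer MII libraries. The means were 97.4 ± 2.76%, 96.2 ± 5.58%, 90.2 ± 15.6% and 92.5 ± 9.89% in the same order, and the lowest library of each group was spring GV replicate 6 at 91.8%, summer GV replicate 2 at 84.8%, spring MII replicate 6 at 58.4% and summer MII replicate 6 at 73.1%.

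The light chain DYNLT3 and the intermediate chain DYNC1I2 rose. DYNLT3, a light chain of the Tctex type, went from 2.34 ± 1.06 to 6.01 ± 1.09 FPKM in spring, with no overlap, and from 3.04 ± 1.02 to 5.61 ± 1.6 in summer. Its log2 fold change was 1.12 in spring (SE 0.22, limma adjusted p = 0.00397), which was just under 1 and no longer passed the fold threshold without spring GV replicate 5, and 0.71 in summer (limma adjusted p = 0.0167). DYNC1I2, an intermediate chain that links dynein to its cargo, went from 12.1 ± 11.7 to 22.7 ± 9.44 FPKM in spring and from 12.1 ± 8.32 to 25.9 ± 13.2 in summer. It was called in both seasons, at 1.1 (SE 0.42, limma adjusted p = 0.0708) and 1.08 (SE 0.38, limma adjusted p = 0.0454), close to the fold threshold. DYNC1I2 values were 0.93, 0.96 and 0.92 in spring without GV replicate 2, GV replicate 5 or MII replicate 6, and 0.98, 0.95, 0.98 and 0.88 in summer without GV replicate 1, GV replicate 3, MII replicate 4 or MII replicate 6. DYNC1H1, the heavy chain that carries the motor, averaged 0.194, 0.375, 0.321 and 0.362 FPKM in spring GV, summer GV, spring MII and summer MII oocytes and was not called.

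Dynactin, the complex that ties dynein to its cargo, had 1 call among its 6 subunits, lower in summer. Of all genes 9.26% were called lower there. DCTN3, of the shoulder of the complex, went from 3.37 ± 0.778 to 1.01 ± 0.384 FPKM in summer without overlap, a log2 fold change of -1.13 (SE 0.17, limma adjusted p = 0.000358), and was not called in spring, at -0.57. Under quantile normalization the DCTN3 summer value was -0.84 and was not called. DCTN6, the subunit with the highest mean, averaged 7.84 ± 4.93 FPKM in spring GV, 7.36 ± 3.43 in summer GV, 3.87 ± 1.94 in spring MII and 4.03 ± 1.79 in summer MII. DCTN1, the subunit that binds microtubules, averaged 0.349, 0.69, 0.139 and 0.108 FPKM in spring GV, summer GV, spring MII and summer MII oocytes, and neither gene was called. For DCTN1 every summer MII library lay under every summer GV library (exact permutation p = 0.00216), while the stages overlapped in spring (exact permutation p = 0.0801).

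**Figure D4:**
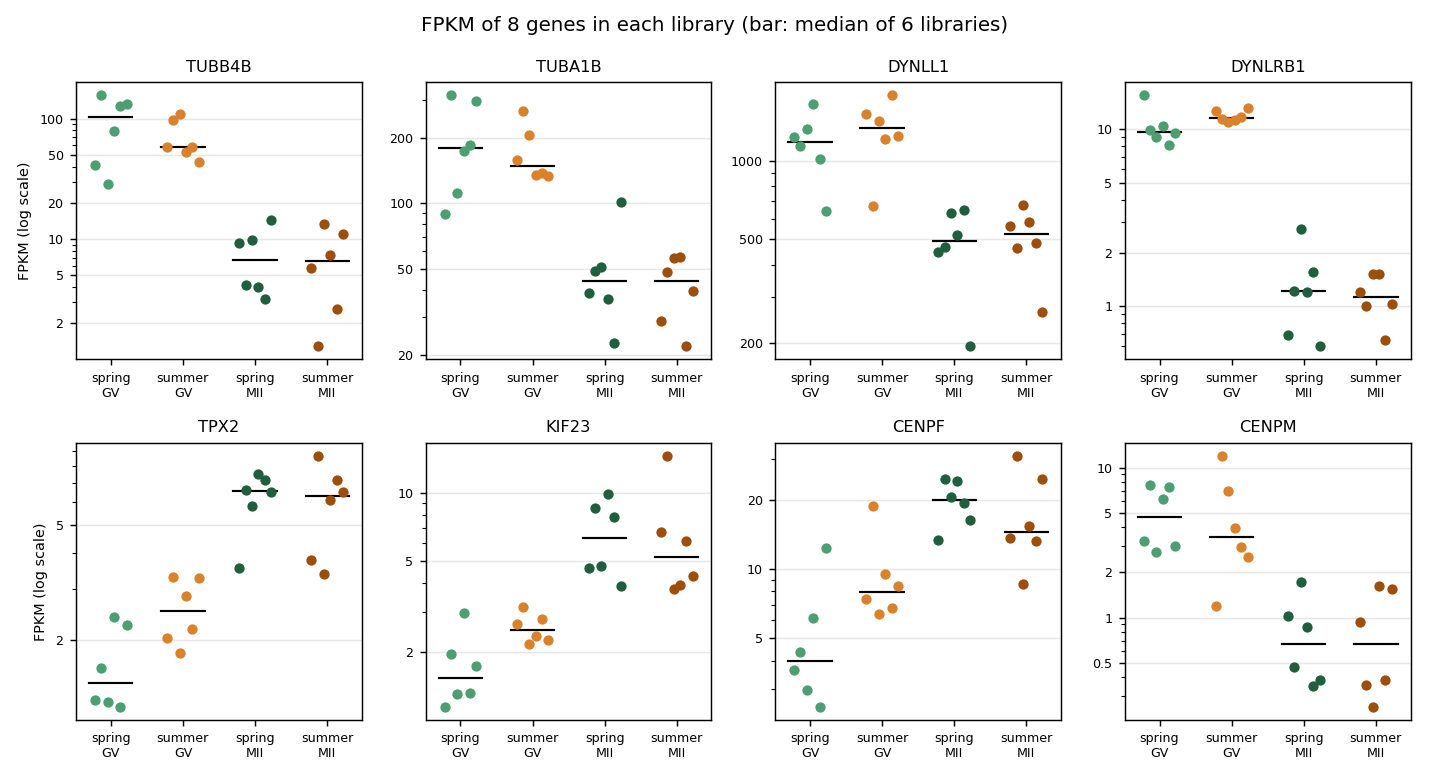
FPKM of TUBB4B, TUBA1B, DYNLL1, DYNLRB1, TPX2, KIF23, CENPF and CENPM in each of the 24 libraries, on a log axis, by group. Dots are libraries and bars are group medians. The libraries of the 2 stages did not overlap for TUBB4B, DYNLRB1, TPX2 and KIF23 within either season, whereas libraries of the 2 seasons within a stage overlapped for all 8 genes.

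The CEP proteins build and anchor centrosomes and centrioles, and several also act at spindle poles. Of the 16 tested, 1 was called higher in each season, beside 3.57% of all genes in spring and 2.2% in summer. In each season 7 rose and 1 fell by limma adjusted p, beside 9.45% and 14.7% of all genes in spring and 7.67% and 23.1% in summer. Their median log2 fold change was 0.35 in spring and 0.29 in summer, beside -0.03 and -0.02 over all genes. CEP44 had the highest mean of the family and went from 3.26 ± 2.53 to 6.67 ± 1.38 FPKM in spring and from 2.54 ± 0.733 to 7.28 ± 1.97 in summer. Its log2 fold change was 1.22 in summer (SE 0.19, limma adjusted p = 0.000497), with no overlap of the stages. In spring it was 1.0 (SE 0.31, limma adjusted p = 0.0347), and CEP44 fell under the fold threshold, at 0.85 to 0.99, without any one of spring GV replicates 1, 2 and 5 and spring MII replicates 2, 4, 5 and 6. CEP55, CEP57 and CEP76, named here after their values were seen, rose in both seasons with folds under 2 on the log2(FPKM + 1) scale, and CEP41 fell in both at levels of 0.134 FPKM or less in every group. The summed level of the 16 went from 9.65 ± 4.94 to 20.1 ± 2.74 FPKM in spring and from 9.22 ± 2.03 to 20.8 ± 3.65 in summer.

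At the centromere and kinetochore, CENP genes moved in both directions. Of the 14 tested, 2 were called higher and 1 lower in each season. Of all genes, 3.57% and 8.25% were so called in spring and 2.2% and 9.26% in summer. CENPF (chromosome 16, 70439074 to 70501668), a large protein of the outer kinetochore and nuclear envelope, ranged from 2.51 to 12.3 (median 3.99) FPKM in spring GV and from 13.4 to 24.6 (median 19.95) in spring MII libraries, with no overlap. It rose by 1.85 on the log2 scale in spring (SE 0.31, limma adjusted p = 0.00138, exact permutation p = 0.00216). In summer it ranged from 6.35 to 18.7 (median 7.93) and from 8.57 to 31.1 (median 14.5), which overlapped, and its value of 0.80 was not called (SE 0.32, limma adjusted p = 0.0739). CENPL, of the inner network on the centromere, rose from 1.56 ± 0.419 to 4.73 ± 1.76 FPKM in spring and from 2.44 ± 1.11 to 6.23 ± 2.01 in summer. It was called in both seasons, at 1.13 (SE 0.21, limma adjusted p = 0.00248) and 1.09 (SE 0.25, limma adjusted p = 0.00584), with 0.99 without spring MII replicate 6 and 0.99 and 0.98 in summer without GV replicate 3 or MII replicate 4.

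CENPM, of the same inner network, went the other way. It averaged 5.03 ± 2.31 FPKM in spring GV, 4.94 ± 3.97 in summer GV, 0.803 ± 0.529 in spring MII and 0.85 ± 0.618 in summer MII (SD, n = 6). CENPM fell, with a log2 fold change of -1.7 in spring (SE 0.28, limma adjusted p = 0.00111), with no overlap, and of -1.5 in summer (SE 0.39, limma adjusted p = 0.0115). CENPK, a further member, was called higher in summer alone, at 1.03 (SE 0.30, limma adjusted p = 0.0191), and the value was 0.87 without summer GV replicate 2 and 0.93 to 0.99 without any one of summer MII replicates 1, 2, 3 and 5. CENPA, the histone variant that marks centromeres, averaged 3.04 ± 2.6 FPKM in spring GV, 2.53 ± 2.01 in summer GV, 6.62 ± 5.94 in spring MII and 5.89 ± 3.56 in summer MII, and its log2 fold changes of 0.89 and 0.98 were not called. CENPW, the most abundant CENP gene, was at 17.3, 15.8, 14.3 and 16.9 FPKM in spring GV, summer GV, spring MII and summer MII oocytes and was not called.

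The 4 subunits of the NDC80 complex, which grips microtubules at the outer kinetochore, had no call in either season, but did not move as one. NUF2 rose by 0.62 and 0.44 on the log2 scale in spring and summer (limma adjusted p = 0.0272 and 0.0349). SPC24 had a log2 fold change of -0.73 in spring (limma adjusted p = 0.0517) and fell in summer, at -0.69 (limma adjusted p = 0.0216). SPC25 was the most abundant of the 4, at 53.1 ± 18.5 FPKM in spring GV, 51 ± 13.6 in summer GV, 30.1 ± 7.32 in spring MII and 37.9 ± 9.79 in summer MII, and NDC80 was at 1.83, 1.95, 2.14 and 1.88 FPKM in the same order, and neither passed the adjusted threshold.

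By limma adjusted p, 17 entries rose in both seasons: CENPL, CEP44, CEP55, CEP57, CEP76, DYNLT3, KIF11, KIF18A, KIF20A, KIF20B, KIF23, KIF2A, KIF4A, NUF2, TPX2, TUBE1 and TUBGCP5. Of all genes tested 4.78% rose in both and 13.2% fell in both. The 8 entries that fell in both were CENPM, CEP41, DYNLL1, DYNLRB1, TUBA1B, TUBA4A, TUBB4B and TUBB6. The called genes differed in the length of the gene. The median span on the chromosome was 36.75 kb for the 13 entries called higher in either season and 4.662 kb for the 10 called lower, beside 24.08 kb for the 109 tested and 15.8 kb for all genes tested. These medians describe entries already chosen by their change, and no test was made.

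A list of other spindle and kinetochore genes outside the symbol rule, also chosen with earlier results of these data known, was counted in the same fits. Of these genes 59 were tested. In spring 10 were called higher and 3 lower in MII oocytes, beside 3.57% and 8.25% of all genes, and in summer 6 and 3, beside 2.2% and 9.26%. The median log2 fold change of these 59 genes was 0.26 in spring and 0.16 in summer, beside -0.03 and -0.02 over all genes. BORA, CKAP2, PRC1 and SGO2 were called higher in both seasons. PRC1, the midzone bundler with which kinesin-4 and kinesin-6 motors work, went from 10.8 ± 7.23 to 32.3 ± 14.3 FPKM in spring (log2 fold change 1.55, limma adjusted p = 0.00997) and had a value of 1.08 in summer (limma adjusted p = 0.0701). AURKA, the kinase that TPX2 activates, went from 96.7 ± 32.8 to 204 ± 18.1 FPKM in spring and was called at 1.14 (limma adjusted p = 0.0049), and was not called in summer, at 0.54. MAD2L2, MZT2B and PLK1 were called lower in both seasons. PLK1, a kinase of spindle poles and kinetochores, went from 5.84 ± 2.95 to 2.04 ± 0.916 FPKM in spring (log2 fold change -1.08) and from 8.69 ± 9.7 to 2.14 ± 1.54 in summer (log2 fold change -1.38), with limma adjusted p-values of 0.0281 and 0.038. None of the 59 was called between the seasons.

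The season comparisons asked whether spindle genes differed between spring and summer oocytes of the same stage. In GV oocytes 1 of the 109 entries was called, MAPRE2 on chromosome 2, beside 0.0315% of all genes tested, and none passed an adjusted p of 0.05 by limma. At an unadjusted p under 0.05, 9 entries differed, 8 of them higher and 1 lower in summer, beside 1.55% of all genes in either direction. That count of 9 was 2 without summer GV replicate 4, 3 without any one of spring GV replicates 1 and 5 and summer GV replicates 2 and 6, and 11 without spring GV replicate 6. In that order all genes gave 92, then 171, 127, 150 and 90, and 288. The 9 entries became 4 under median-of-ratios scaling, where 204 of all genes had such a p, beside 148 without it. Among genes with a mean of at least 1 FPKM, 3 entries had such a p. MAPRE2 on chromosome 2 had a log2 fold change of -3.48 (SE 1.18, unadjusted limma p = 0.0112, exact permutation p = 0.0671), and 0.52 on chromosome 24 (unadjusted limma p = 0.0181, exact permutation p = 0.0671). These MAPRE2 entries were the 1 lower and 1 of the 8 higher at an unadjusted p under 0.05. Never above 0.01 in the same library, they are not separate results. The chromosome 2 value of MAPRE2 was -2.88 and not called once the GV libraries of low mapping rate were left out. The median log2 fold change of the 109 entries in GV oocytes was 0.04, beside 0.01 over all genes.

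Several motors and spindle proteins had a small p in GV oocytes, all of them higher in summer. KIF20A ranged from 0.619 to 2.99 (median 2.15) FPKM in spring GV and from 2.19 to 6.08 (median 3.39) in summer GV libraries, a log2 fold change of 0.59 (SE 0.26, unadjusted limma p = 0.0383, exact permutation p = 0.0346). CENPF ranged from 2.51 to 12.3 (median 3.99) and from 6.35 to 18.7 (median 7.93), a log2 fold change of 0.81 (SE 0.34, unadjusted limma p = 0.0343, exact permutation p = 0.0455). The groups overlapped for both genes, and neither passed the adjusted threshold or a fold of 2. Without spring GV replicate 6 the CENPF value was 1.06 and was called. TPX2 and KIF23 were higher in summer GV oocytes by 0.44 and 0.40 on the log2 scale, with unadjusted limma p-values of 0.0391 and 0.0447 and exact permutation p-values of 0.0281 and 0.026. KIF4A, a chromosome-arm motor, was at 0.0967 ± 0.0194 FPKM in spring and 0.154 ± 0.0336 in summer GV oocytes (unadjusted limma p = 0.0337, exact permutation p = 0.00433). For 0 entries did the 6 spring and 6 summer GV libraries separate without overlap, where 0.136% of all genes were higher and 0.042% lower in summer in this way.

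In MII oocytes 0 of the 109 entries were called by limma between the seasons, beside 0.042% of all genes tested, and 0 passed the adjusted threshold. At an unadjusted p under 0.05, 4 entries differed, 1 higher and 3 lower in summer, beside 2.11% of all genes, and 1 did with all 4 groups in one fit. KIF2C (chromosome 3, 101832364 to 101851109) ranged from 7.61 to 11.5 (median 7.99) FPKM in spring MII and from 4.63 to 6.88 (median 5.66) in summer MII libraries. It was the 1 entry for which the seasons did not overlap, where 0.168% of all genes were lower and 0.0105% higher in summer without overlap. Its log2 fold change was -0.50 (SE 0.14, unadjusted limma p = 0.00409, limma adjusted p = 1, exact permutation p = 0.00216). KIF3A was lower in summer, with a log2 fold change of -0.50 (unadjusted limma p = 0.04998, exact permutation p = 0.0541) and DYNC1LI1, a light intermediate chain of dynein, likewise, at -0.44 (unadjusted limma p = 0.0123, exact permutation p = 0.00649). CEP41 was the entry higher in summer, by 0.04 at 0.0321 and 0.0605 FPKM (unadjusted limma p = 0.00784, exact permutation p = 0.00866). Its values rest on few of the steps between low values, 1 to 13 in spring and 11 to 31 in summer MII libraries. TUBG1 ranged from 3.48 to 9.34 (median 6.92) FPKM in spring and from 1.64 to 7.22 (median 3.0) in summer MII libraries, a log2 fold change of -0.74 (SE 0.34, unadjusted limma p = 0.0523, exact permutation p = 0.0736).

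Whether the change from GV to MII differed between summer and spring was tested as an interaction over the 24 libraries. Of the 109 entries 3 were called, MAPRE2 on chromosome 2, TUBG1 and CENPF, beside 0.21% of all genes, 6 had an unadjusted p under 0.05, beside 1.8%, and none passed the adjusted threshold. Both MAPRE2 entries were among the 6 and, never above 0.01 in the same library, are not separate results. TUBG1 (chromosome 19, 43316471 to 43321168) was at 4.08 ± 2.5 FPKM in spring GV, 5.98 ± 1.81 in summer GV, 6.63 ± 2.58 in spring MII and 3.8 ± 2.38 in summer MII. It was thus higher in MII than in GV oocytes on average in spring, by 0.69 on the log2 scale, and lower in summer, at -0.65, neither of which was called. The difference, summer minus spring, was -1.34 (SE 0.50, limma adjusted p = 1), and -0.90 and not called without the 3 libraries of low mapping rate. For CENPF the difference was -1.04 (SE 0.45, limma adjusted p = 1), a smaller rise in summer. It lay just past the fold threshold and was between -0.84 and -0.99 without any one of spring GV replicates 1, 3 and 5, summer GV replicate 2, spring MII replicates 2 and 4 and summer MII replicates 1, 3 and 5. KIF2C had a difference of -0.83 (SE 0.38, limma adjusted p = 1) that was not called with all libraries, and of -1.09 without spring GV replicate 6.

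**Figure D5:**
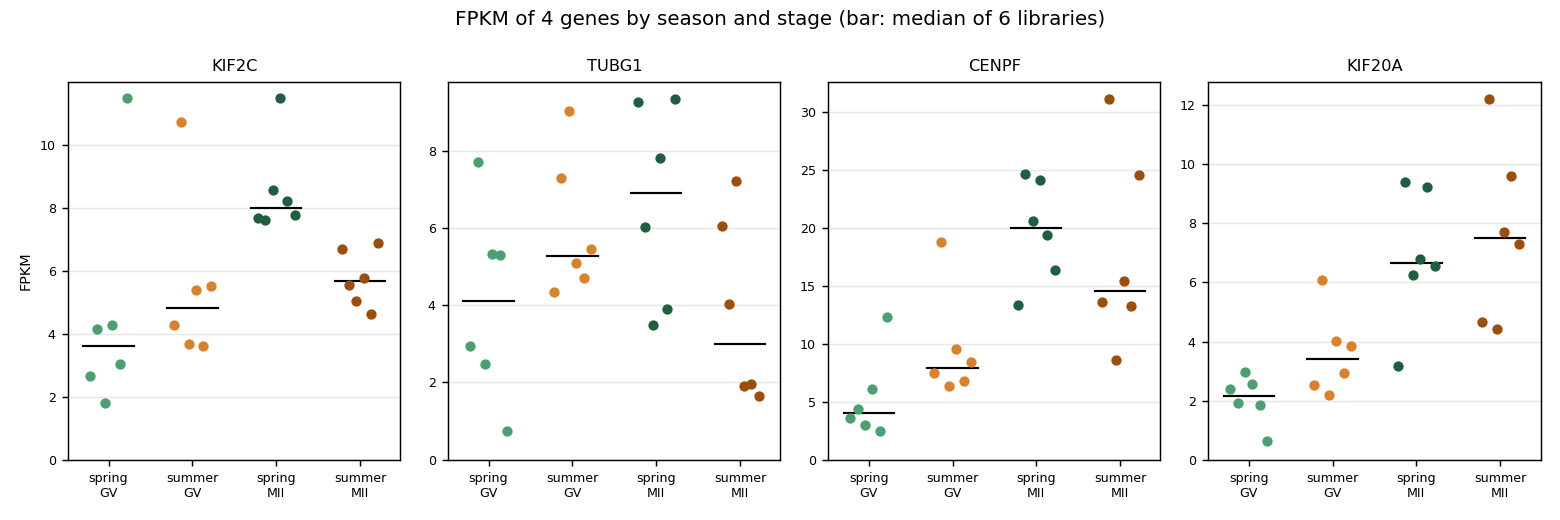
FPKM of KIF2C, TUBG1, CENPF and KIF20A in each library of the 4 groups, on linear axes. Dots are libraries and bars are group medians. Spring MII libraries of KIF2C lie at 7.61 to 11.5 FPKM, above all summer MII libraries at 4.63 to 6.88, whereas the seasons overlap in every other pair of groups shown.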

How the data were processed

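Polyadenylated RNA from pools of 4 oocytes was amplified with a Smart-seq2 v4 kit and sequenced on an Illumina NextSeq. After trimming, the authors aligned reads to the bovine assembly UMD3.1.1 with STAR 2.5.3a and deposited FPKM values per gene and library. The values show that each library was brought to one total and that 0.01 was added. No counts are listed, so absolute depth and counting error are unknown; relative depth came from the spacing of low values, computed with Python 3.11.15, numpy 2.4.6 and pandas 2.3.3, where 99.2% of 749 values kept out of the fit came within 0.1 of a whole number of steps. Depth limits the genes under 1 FPKM most, and most in the shallow libraries.

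The gene entries, their families and the list of other spindle genes were chosen with earlier results of these data known. Each entry was compared between MII and GV oocytes within each season, between seasons within each stage, and for the difference between seasons, with limma 3.58.1 in R 4.3.3 on log2(FPKM + 1), with the spread following mean expression, over the 9526 entries above 0.1 FPKM in at least 1 library. The thresholds follow the methods, whose tool, Partek Flow, was not used here. Adjusted p-values are Benjamini-Hochberg values over all 9526. The steps were tested on simulated data. The genes named were the called genes of each family, at most 3 in each direction, the genes called in or with the 5 smallest p of each season comparison, the most abundant gene of each family, MAPRE2, and a list of spindle genes, of which CENPE was not analysed here. A gene that this rule names is not reported here. Genes outside this rule are TUBA1A, TUBA1C, TUBA4A and TUBB3, named to complete the tubulins, DYNLRB2, DYNLL2, CENPT, KIF1BP and those of the lists that rose or fell in both seasons. Alternatives were a pseudocount of 0.1 or none, no filter, a mean of at least 1 FPKM, 2 other scalings, all groups in one fit, a replicate block, adjusted p, the ratio of group means, and leaving out each library or the 3 libraries of low mapping rate. Figures were drawn with matplotlib 3.10.9.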

Additional observations from a re-analysis of the deposited data

Results flagged for a closer look

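In each group of 6 libraries the highest or lowest library was set apart where its gap to the next was over 0.625 of the range, Dixon's limit for 6 values. Gap and range were taken on the log2(FPKM + 1) scale, and the values below are given in FPKM. Of 184 groups of values for the 46 named entries, 31 had such a library. For independent values of a normal distribution chance gives about 1 in 20. These groups share the same libraries and many entries were named by their values, so that rate cannot measure an excess here. The 3 libraries of low mapping rate, which also had low depth and raised cumulus cell markers, held most of them, and the part of these features in the values was not tested. In spring GV replicate 6 these were TACC3 at 913 FPKM, MAPRE1 at 31.2, DYNC1LI1 at 5.57, KIF3A at 3.04, KATNA1 at 1.59 and DYNC1H1 at 0.541, all the highest of their group, and KIF20A at 0.619, the lowest. In summer GV replicate 2 the highest were MAPRE1 at 29.8 FPKM, CENPF at 18.7, KIF22 at 16.6, KIF2C at 10.7, KIF20B at 7.43, DYNC1LI1 at 6.16, DCTN1 at 2.19 and DYNC1H1 at 1.18, and DCTN6 at 0.769 was the lowest. In spring MII replicate 6 DYNLL1 at 195 FPKM and DCTN3 at 0.163 were the lowest, and KIFC1 at 2.23 and DCTN1 at 0.46 the highest.

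Other libraries were set apart for fewer genes. In summer MII replicate 2 KIF20B reached 16.2 FPKM, NDC80 3.63 and NUF2 3.61, each the highest of its group. In spring MII replicate 1 TPX2 at 3.56 FPKM and KIF11 at 0.471 were the lowest of their group, and KIF2C was highest in spring MII replicate 4 at 11.5. The chromosome 2 entry of MAPRE2 was at 0.01 in spring GV replicate 4 and spring MII replicate 3 and at 56.1 FPKM in summer GV replicate 3, and its chromosome 24 entry was at 0.663 and 0.932 in the first pair of these libraries.

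The change from GV to MII differed between the seasons, summer minus spring, at an unadjusted limma p under 0.05 for 6 entries. Each had a limma adjusted p of 0.9998, which is given rounded above. The limma differences on the log2 scale over 24 libraries were 4.44 for MAPRE2 on chromosome 2, -0.67 for MAPRE2 on chromosome 24, -1.34 for TUBG1, -1.04 for CENPF, -0.83 for KIF2C and -0.79 for CENPT. Both MAPRE2 entries were never above 0.01 in the same library and are not separate results.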

How the results depend on the processing

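Counts of called entries moved most with the fold scale. With a pseudocount of 0.1 they were 2 between seasons in GV oocytes, 28 higher and 10 lower in MII oocytes in spring, 20 higher and 18 lower in summer, and 4 for the season difference. Over all 9526 genes tested the same counts were 37, then 960 higher and 1668 lower, 556 higher and 1965 lower, and 96. With no pseudocount the called entries were 2, then 35 higher and 14 lower in spring, 25 higher and 23 lower in summer, and 8 for the season difference. All genes gave 116, then 1371 higher and 2165 lower, 830 higher and 2762 lower, and 191. With the ratio of group means the called entries were 2, then 31 higher and 12 lower in spring and 25 higher and 21 lower in summer. All genes gave 56, then 1158 higher and 2058 lower, and 775 higher and 2556 lower. Median-of-ratios scaling gave 7 higher in spring, beside 190 of all genes, and 1 season difference, beside 11. Quantile normalization gave 18 higher in summer, beside 494 of all genes. With adjusted p in place of unadjusted p, 0 were called between seasons in GV oocytes and 0 for the difference. Without the 3 libraries of low mapping rate 0 were called between seasons in GV oocytes and 10 were called higher in summer, beside 3 and 335 of all genes. Leaving out each library in turn gave 1 to 2 in GV oocytes, 0 in MII oocytes, 7 to 14 higher and 7 to 8 lower in spring, 4 to 10 higher and 8 to 9 lower in summer, and 2 to 4 for the difference. Over all genes these were 3 to 13, 2 to 16, and 281 to 499 higher and 713 to 851 lower in spring. In summer they were 163 to 335 higher and 812 to 919 lower, and 15 to 41 for the difference. The counts of entries reached 2 in GV oocytes without spring GV replicate 6, 7 higher in spring without spring GV replicate 5 or spring MII replicate 6, 10 higher in summer without summer GV replicate 2 or summer MII replicates 3 or 6, and 4 without summer GV replicate 3. Beside these, all genes gave 13, then 281 or 293, then 335, 292 or 193, and 163.

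Replicate numbers are shared between groups, and the correlations of same-numbered libraries' deviations ran from -0.44 to 0.76. They exceeded 0.1 for 1 of 6 pairs between seasons in GV and 4 in MII oocytes, and for 3 and 4 pairs between stages in spring and summer, and 1, 4, 2 and 1 libraries in that order correlated best with their own number. Not every pair exceeded 0.1 in any comparison. Libraries of the same animal need not share a number, so these correlations cannot decide whether libraries are paired. The libraries were fitted as unpaired because which of them share an animal is not given in the sources used here. With the replicate block the counts were 1 and 0 between seasons, 11 higher and 7 lower in spring, 6 higher and 9 lower in summer, and 3 for the difference. All genes gave 4 and 6, then 350 higher and 787 lower, 210 higher and 879 lower, and 23. The block moved the entries with an unadjusted p under 0.05 between seasons from 9 to 4 in GV and from 4 to 7 in MII oocytes, and those of all genes from 148 to 111 and from 201 to 370. For 47 results of named entries, 1038 fits under alternatives gave 975 with the same direction and call, 56 weaker, 7 stronger and 0 reversed. Depth limits entries under 1 FPKM, and the split of reads between near-identical tubulins was not tested. The ratio of group means and the fit of all groups were not run for the season difference.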

Other observations

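Summed levels of families not described above also differed in direction between the stages. The 12 dynein subunits together went from 1262 ± 318 to 598 ± 129 FPKM in spring and from 1411 ± 335 to 611 ± 116 in summer (SD, n = 6), most of it DYNLL1. The 14 CENP genes summed to 56.2 ± 8.09 FPKM in spring GV, 59.1 ± 9.09 in summer GV, 71.1 ± 7.31 in spring MII and 73.8 ± 13.4 in summer MII oocytes. The 4 subunits of the NDC80 complex summed to 59.3 ± 18, 57.5 ± 13.6, 36.2 ± 8.26 and 43.7 ± 9.67 FPKM in the same order, most of it SPC25. The 6 gamma tubulin and complex genes summed to 49.7 ± 22.5, 50.1 ± 23.5, 91.4 ± 44.3 and 62.0 ± 19.1 FPKM, most of it TUBG2. None of these sums was tested.

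Some neighbouring genes of the set differed between stages to unequal degrees. On chromosome 5, TUBA1C, TUBA1A and TUBA1B lie 85.4 and 38.83 kb from each other in that order. Their spring log2 fold changes were 0.10, 0.08 and -1.96 and their summer values 0.02, 0.19 and -2.05, of which the TUBA1B values alone were called by limma.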
